A study of Saccharomyces cerevisiae with 50 samples.

Results

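The cytoplasmic ribosome of Saccharomyces cerevisiae is built from large-subunit proteins (genes RPL), small-subunit proteins (genes RPS) and the acidic stalk proteins (RPP0, RPP1A, RPP1B, RPP2A and RPP2B). The ribosomal protein (RP) genes were taken by symbol from the R64 annotation, which gave 137 genes of the 6430 nuclear genes with a known strand. Of these, 76 were RPL genes, 56 were RPS genes and 5 were stalk genes. RP promoters are known as the targets of Rap1p, Fhl1p, Ifh1p and Sfp1p, and their transcription is held up by the TOR pathway, which rapamycin inhibits. Most RP genes exist as an A copy and a B copy that encode nearly the same protein.

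The series asked whether pairs of transcription factors depend on each other for promoter occupancy. Each factor carried a C-terminal c-myc tag in the W303 strain Z1256, and was immunoprecipitated from a strain that lacked its cofactor, where a kanamycin marker replaced the cofactor gene, and from the wild type (WT). Gcn4p, the activator of amino acid biosynthesis genes, was assayed in rtg3Δ (3 IPs) and WT (3 IPs). Rtg3p, the retrograde response factor, was assayed in gcn4Δ (3 IPs) and WT (3 IPs). Nrg1p, a repressor of glucose-repressed genes, was assayed in sut1Δ (3 IPs) and WT (3 IPs). Sut1p, a factor of sterol uptake, was assayed in nrg1Δ (3 IPs) and WT (3 IPs). Swi4p, the DNA-binding subunit of the G1/S factor SBF, was assayed in swi6Δ (1 IP) and WT (1 IP), and Swi6p, its partner, in swi4Δ (2 IPs) and WT (2 IPs). The Gcn4p and Rtg3p cultures received 100 nM rapamycin for 20 min in rich medium, and the Nrg1p, Sut1p and Swi4p cultures grew in rich medium with no drug. The medium of the Swi6p cultures is not given in the labels. Per the study's methods, WT cultures were split after growth into the samples for IP, whereas deletion strains were grown separately, so the spread among WT IPs may be technical.

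Each of the 30 IPs has a list of peaks, regions where MACS found more IP than INPUT reads. The labels list 1 INPUT for each Gcn4p and Rtg3p IP, but only 1 INPUT per strain for the other factors. IPs of such a strain share a control, so agreement between their lists is not fully independent. The lists held 3 to 1065 peaks, 8486 in all, and their read depth is unknown. A promoter, the 600 bp upstream of an annotated gene start, counted as marked in an IP where at least 1 bp of it lay under a peak. Peaks were wide, with a median width of 751 to 2501 bp by list, so that a peak could cover a promoter, the gene and a neighbour. Some lists stood apart. The third WT list of Sut1p shared 3.97% and 8.24% of its bound promoters (of the union) with the first and second WT lists, which shared 38.9% with each other, but 23.6% to 30.8% with the nrg1Δ lists. Both swi4Δ lists of Swi6p were nearly empty, with 3 and 8 peaks, against 228 and 204 peaks in WT. Deletion of the cofactors was not checked here, since peak lists give no read counts.

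Of the factors assayed, Swi6p in WT gave the widest gap between RP genes and other genes. In the 2 WT IPs, 61 and 38 of the 137 RP promoters had a Swi6p peak, or 44.5% and 27.7%, against 7.77% and 6.55% of the 6293 other genes. The difference averaged 29 ± 11 percentage points (SD, n = 2). Both IPs marked 31 RP promoters, or 22.6%, beside 5.66% of all 6430 genes. An RP promoter or gene lay under 53 of 228 peaks in the first WT list and 36 of 204 in the second, 23.2% and 17.6% of the lists. The scores of these peaks were like those of the rest, with a median of 153 at RP genes and 141 elsewhere in the first list, and 99.5 and 114 in the second.

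**Figure D1:**
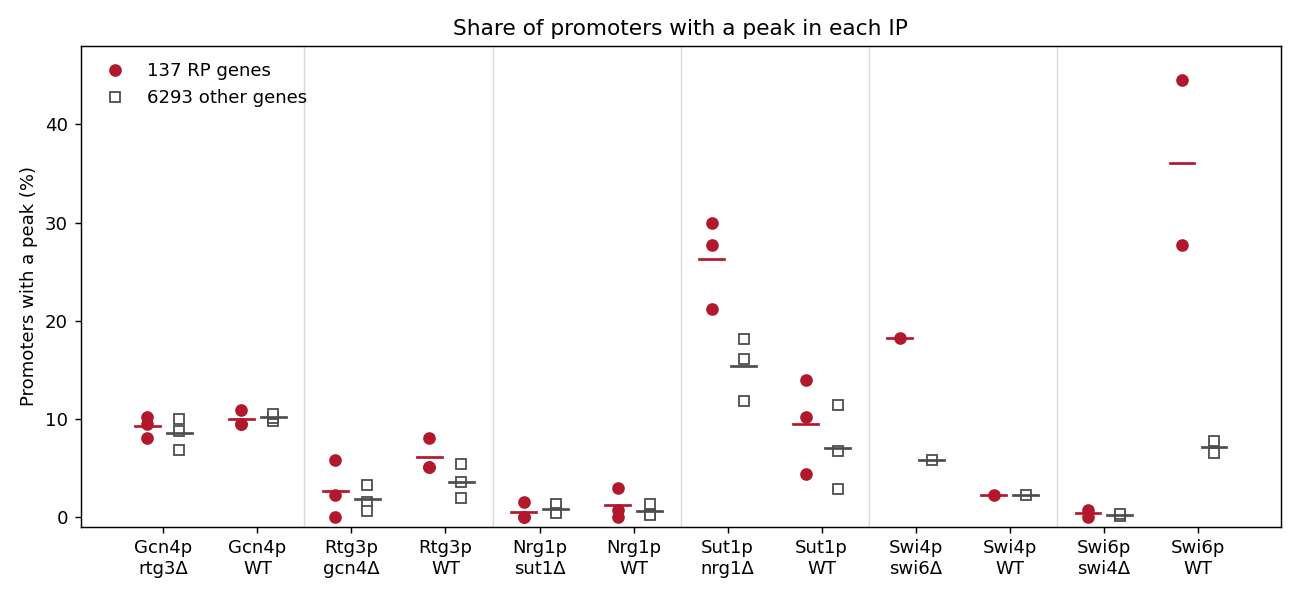
Percent of promoters with a peak (y axis) in each IP, by tagged factor and strain (x axis). Filled circles are the 137 RP genes, open squares the 6293 other genes, and each short line is the mean of a group. The circles lie far above the squares for Swi6p in WT (44.5% and 27.7%), above them for Swi4p in swi6Δ (18.2%) and Sut1p in nrg1Δ, and among them for Gcn4p.

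Swi6p peaks lay over the RP genes themselves more than over their promoters. Of 102 pairs of a WT Swi6p peak and an RP promoter, 62 had the peak centre inside the RP gene, 6 inside the promoter and 34 elsewhere, and the median centre was 411 bp downstream of the gene start. For other protein-coding genes, the median Swi6p centre was at -500 bp, and 20.3% of centres lay in the gene. Peak centres fell within 38 and 24 RP genes, 27.7% and 17.5% of them, against 1.76% and 1.57% of other genes. When the centre had to fall in the 600 bp promoter, 3 RP promoters in each list qualified, or 2.19%, against 1.73% and 1.68% of other genes. Overlap with the gene body gave 40.9% and 27.7% of RP genes, against 7.17% and 6.34% of other genes.

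Among promoters marked in both WT Swi6p lists, RPL18B, RPS19B and RPL28, which encodes a large-subunit protein known for cycloheximide resistance, had the highest mean scores. MACS scores depend on depth, so scores of different lists stand side by side here and are not compared. The mean over lists serves only to order the named genes and can rest on a single list. The RPL28 peaks had scores of 1451.48 and 556.73 and spanned chrVII:310495-312899 and chrVII:310497-312786, over the whole gene (chrVII:310967-311927, Watson strand). The RPL18B promoter was reached in the first list by a peak of score 2323.59 that spanned chrXIV:61767-67164 and also covered the RPS19B promoter. In the second list RPS19B had 118.33, below RPL37B, RPL36A and RPL9B. In the second list the same stretch held 2 peaks, with scores of 118.33 and 1985.37, and the stronger had its centre 108 bp from the start of TOS6, a neighbour named as a target of SBF. The WT Swi4p peak there (score 3100.00) was centred 134 bp from the TOS6 start. These RPL18B values therefore belong to a region that holds a TOS6 start as well. RPL37B, RPS25B and RPL36A came next among promoters marked in both lists. Their scores in the first and second list were 815.84 and 648.41, 1012.62 and 162.62, and 618.95 and 379.29. The RPS25B peaks were centred 68 and 23 bp from the SNR55 start, and the RPL36A peaks 138 and 152 bp from the SNR11 start. These centres all lay past the end of the RP gene, so the regions hold neighbours as well. RPL3 had 1220.61 in the first list and no promoter peak in the second.

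Neighbouring RP genes shared peaks, so promoters are not independent. The 61 RP promoters of the first WT Swi6p list rested on 53 peaks and the 38 of the second on 34. In both lists, 1 peak each reached RPS14B, RPS22A and RPL39, RPL13B and RPS16A, and RPS9A and RPL21B. Of the 137 RP promoters, 29 held the start of another annotated gene.

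No RP promoter had a Swi6p peak in both swi4Δ lists, in which 0% of all genes did. The swi4Δ lists marked 1 and 0 RP promoters, against 61 and 38 in WT. All 31 RP promoters marked in both WT lists were free of peaks in both swi4Δ lists, as were 361 of the 364 genes of any kind marked in both. They were 22.6% of RP genes, beside 5.61% of all genes. None had the opposite pattern, beside 0%. With 3 and 8 peaks, the swi4Δ lists could mark few promoters of any kind, so these counts cannot show a loss particular to RP genes. With 2 IPs per strain the exact permutation test (two-sided) cannot go below p = 0.33, and every adjusted p was 1 over 6430 genes. The share of other genes was also lower in swi4Δ, by -6.99 points against -35.8 points for RP genes. Without WT IP 2 the count of RP promoters in WT alone was 61, and the share of all genes in that setting was not computed. With only the 3 top peaks of each Swi6p list, the RP difference between strains was 0.365 points.

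Swi4p marked RP genes in swi6Δ but hardly in WT. In the single swi6Δ list, 25 RP promoters (18.2%) had a peak, beside 6.1% of all genes, and in the single WT list 3 did (2.19%), beside 2.26%. The 22 promoters with a peak in swi6Δ alone were 16.1% of RP genes, beside 4.14% of all genes, and 0 had a peak in WT alone, beside 0.295%. There are no replicates for Swi4p, so these counts compare 2 lists with no test. The swi6Δ list held 182 peaks and the WT list 73. The RP difference of 16.1 points was 2.19 with equal numbers of top peaks, 2.92 by peak centre and 6.57 with a score of at least 100. By score, RPS3 (479.81), RPL8A (436.02), RPL28 (409.63), RPL3 (401.21) and RPL11B (346.05) led those in swi6Δ alone, and RPL33B had 264.45. The RPL11B peak was centred at -1796 bp, 86 bp from the PIL1 start. The RPL33B peak was centred at -1200 bp, 301 bp from the DFR1 start. RPL37B had scores of 285.34 in swi6Δ and 190.03 in WT, and RPL15B had 553.18 and 125.24. RPL18B had 53.23 in swi6Δ and 3100.00 in WT. RP peaks were weaker than the rest of the swi6Δ list, with a median score of 112 against 249.

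The RP genes marked by Swi4p in swi6Δ and by Swi6p in WT overlapped. The 16 shared promoters were 64% of the 25 Swi4p promoters and 51.6% of the 31 Swi6p promoters. Among other genes the shares were 49.9% and 55%. RPL8A was reached over nearly the same stretch, chrVIII:34213-36284 for Swi4p in swi6Δ and chrVIII:34210-36333 for Swi6p in the first WT list. In the Swi4p swi6Δ list, 6 of 25 centres lay in the promoter, 6 in the gene and 13 elsewhere.

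Sut1p marked more RP promoters in nrg1Δ than in WT. The nrg1Δ IPs had peaks at 41, 38 and 29 RP promoters (29.9%, 27.7% and 21.2%), against 6, 19 and 14 (4.38%, 13.9% and 10.2%) in WT. The lowest nrg1Δ value was above the highest WT value. The mean was 26.3 ± 4.56% in nrg1Δ and 9.49 ± 4.79% in WT (SD, n = 3 each), a difference of 16.8 points, and 17.2 points without the third WT IP. Other genes moved the same way by 8.37 points, at 11.8%, 16.1% and 18.1% in nrg1Δ, against 2.86%, 6.67% and 11.4% in WT. The nrg1Δ lists were also longer, with 696, 808 and 1065 peaks, against 117, 267 and 579 in WT. With equal numbers of top peaks in every Sut1p list, the RP difference was 4.38 points, and with peak centres in the promoter 6.81 points.

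The excess of RP genes over other genes varied among the Sut1p lists. It was 18.1, 11.6 and 3.07 points in nrg1Δ, and 1.52, 7.19 and -1.16 points in WT. These ranges overlapped. The WT mean was 2.52 ± 4.27 points, within the spread between IPs, and 4.36 without the third WT IP. With equal numbers of top peaks it was -0.12. The gene body gave 31.9 ± 4.02% of RP genes in nrg1Δ and 8.52 ± 4.4% in WT, and 20% and 7.77% of other genes. In WT the body excess was 0.751 ± 7.09 points over 3 IPs and 4.54 without the third. RP peaks had higher median scores than the rest of each nrg1Δ list, at 162 against 112, 164 against 131 and 227 against 127.

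Peaks in at least 2 IPs marked 35 RP promoters in nrg1Δ (25.5%, beside 13.8% of all genes) and 6 in WT (4.38%, beside 3.56%). The 6 were RPL41B, RPS22A, RPL39, RPL8B, RPS3 and RPS19A, of which RPL41B, RPL8B and RPS3 were also among the 35. RPS3, a small-subunit protein at the entry of the mRNA channel, had Sut1p scores of 538.10, 594.27 and 768.07 in nrg1Δ, and of 1066.52 and 3100.00 in the first and second WT IPs with no peak in the third. Its Sut1p peaks were centred at -546 to -1119 bp from the gene start. RPS19A had a peak in 1 nrg1Δ IP (191.90) and in the first and second WT IPs (211.11 and 890.80). RPL41B, one of the shortest genes at 78 bp, had scores of 570.95, 800.19 and 925.03 in nrg1Δ, and of 108.57 and 358.54 in WT IPs 2 and 3.

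In 8 RP promoters, 5.84% of them, Sut1p peaks were present in every nrg1Δ IP and no WT IP, beside 2.97% of all genes. None had the opposite pattern, beside 0.0467%. The smallest p that 3 against 3 IPs allow is 0.1 (exact permutation test, two-sided), and no adjusted p was below 1 over 6430 genes. Without the third WT IP the count was 14, and 2 promoters then had the opposite pattern. The share of all genes without that IP was not computed, so this rise is not shown to be particular to RP genes. RPL9B led the 8, with scores of 284.28, 421.87 and 569.72, from peaks centred at -654 to -1115 bp. RPS27B had 316.65, 282.86 and 323.94, RPL11B had 295.20, 200.57 and 306.59, and RPL33A had 198.17, 159.33 and 250.17. RPL41A and RPS30B were the next by score, and RPL19B and RPL40B, whose product is fused to ubiquitin, completed the set.

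**Figure D2:**
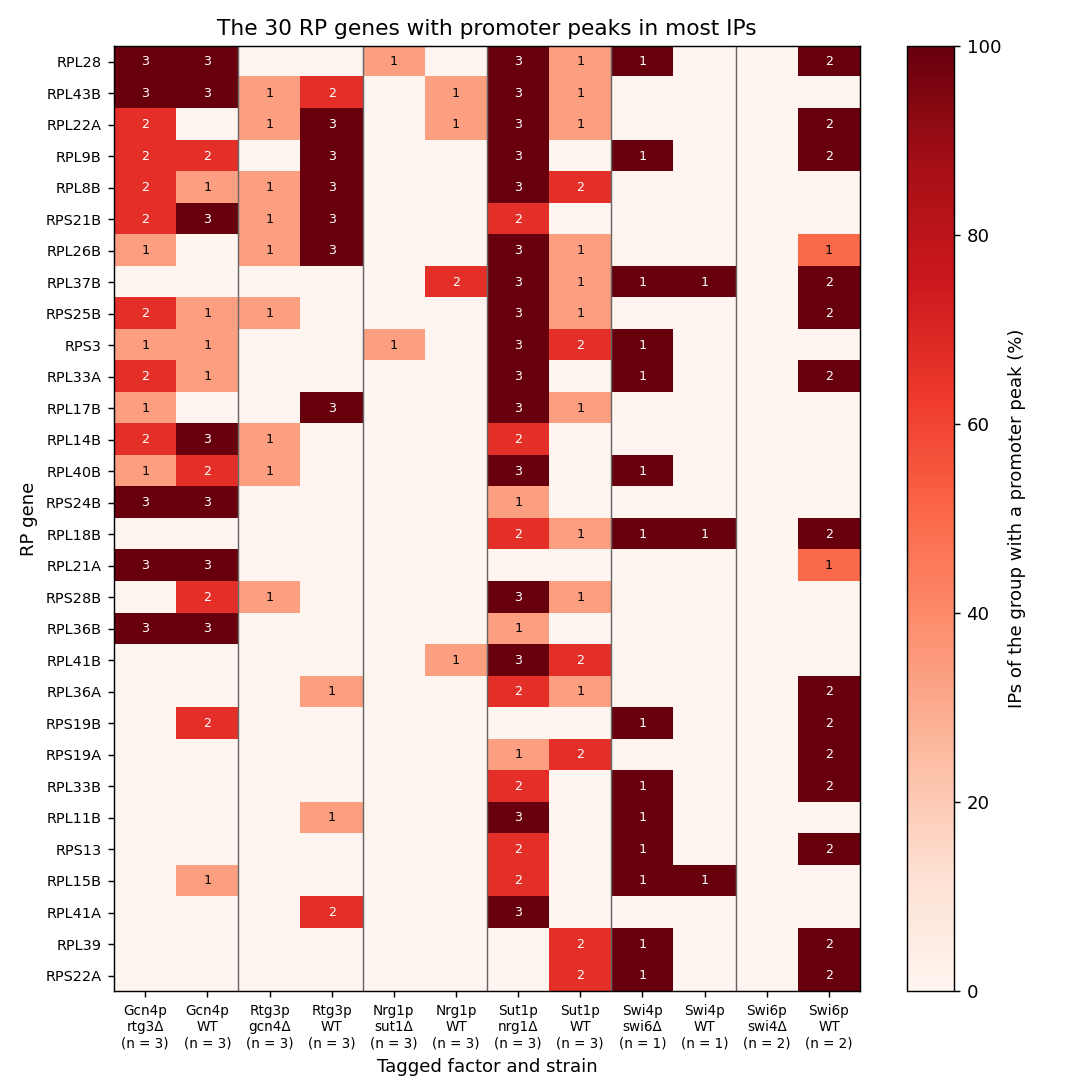
The 30 RP genes (rows) with promoter peaks in most of the 30 IPs, by tagged factor and strain (columns). Colour gives the percent of the IPs of a group with a peak and the digit their number. RPL28 and RPL43B, at the top, had peaks in 14 IPs each. The swi4Δ column of Swi6p is empty.

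Rtg3p marked a small set of RP genes in every WT IP. The gcn4Δ IPs had peaks at 3, 0 and 8 RP promoters (2.19%, 0% and 5.84%), against 1.53%, 0.54% and 3.23% of other genes. The WT IPs had peaks at 11, 7 and 7 (8.03%, 5.11% and 5.11%), against 5.4%, 1.88% and 3.5% of other genes, an excess of 2.49 ± 0.819 points (SD, n = 3) that was positive in 3 of 3 IPs. The ranges of the 2 strains overlapped, with means of 2.68 ± 2.95% in gcn4Δ and 6.08 ± 1.69% in WT. Other genes had a mean of 1.76% in gcn4Δ and 3.59% in WT, a difference of -1.83 points. The RP difference of -3.41 points was -0.973 with a score of at least 100, -1.22 with equal numbers of top peaks and -1.7 by peak centre. At the gene body the WT excess was 0.707 ± 0.759 points, within the spread. In gcn4Δ no RP promoter had a peak in 2 IPs, beside 0.653% of all genes. In WT, 8 RP promoters had peaks in at least 2 IPs (5.84%, beside 2.32% of all genes). Of these, 6 had them in every IP, namely RPL26B, RPL17B, RPS21B, RPL8B, RPL22A and RPL9B. The RPS21B peaks of WT IPs 1 and 2 had the start of LCB3 nearest to their centres.

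RPL17B had no Rtg3p peak in gcn4Δ and scores of 478.51, 116.02 and 313.50 in WT, from peaks centred 421, 677 and 784 bp inside the gene. RPL9B had no peak in gcn4Δ and scores of 71.90, 91.94 and 94.93 in WT. Its WT peaks were centred at -901, -1042 and -1151 bp, outside the promoter, and the nearest gene start was that of FKH2. These 2 genes (1.46% of RP genes) were the RP promoters marked in every WT IP and no gcn4Δ IP, beside 0.218% of all genes, and 0 had the opposite pattern, beside 0.0311%. The exact test again allows no p below 0.1. Without gcn4Δ IP 1 or IP 3 the count in WT alone was 4, and the share of all genes in these settings was not computed. RPL26B had a single gcn4Δ peak of 250.12 and scores of 205.76, 201.44 and 166.36 in WT. RPL8B had a single gcn4Δ peak of 427.53 and scores of 180.78, 56.73 and 160.22 in WT. All 8 Rtg3p promoters of WT were also among the 35 Sut1p promoters of nrg1Δ (22.9% of these), and among other genes 75.9% of the Rtg3p set was.

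Gcn4p marked RP promoters about as often as other promoters. In rtg3Δ, 11, 13 and 14 RP promoters had a peak (8.03%, 9.49% and 10.2%), against 6.85%, 8.76% and 9.95% of other genes. In WT, 13, 15 and 13 had a peak (9.49%, 10.9% and 9.49%), against 9.79%, 10.1% and 10.5% of other genes. The WT excess was -0.163 ± 0.944 points (SD, n = 3), and the means of 9.25 ± 1.11% in rtg3Δ and 9.98 ± 0.843% in WT differed by less than the spread between IPs. Gene bodies of RP genes were marked less than those of other genes in 3 of 3 WT IPs, at 9.49%, 8.76% and 5.11% against 11.9%, 14.1% and 13.4%. Gene length was not matched between RP and other genes, and whether it plays a part in the body shares was not tested.

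The Gcn4p RP promoters were shared between strains to a degree near that of other genes. Peaks in at least 2 IPs marked 12 RP promoters in rtg3Δ (8.76%, beside 6.89% of all genes) and 13 in WT (9.49%, beside 8.72%), and 8 were in both sets, 66.7% of the first and 61.5% of the second. In other genes these shares were 66.1% and 52%. No RP promoter was marked in every rtg3Δ IP and no WT IP (0.0778% of all genes) or the reverse (0.389%). With 3 against 3 IPs no gene could go below p = 0.1 in the exact test. RPS24B had a peak in every Gcn4p IP and the highest RP score in most, though not in rtg3Δ IP 2 or WT IP 3. Its scores were 2166.01, 1043.11 and 1451.51 in rtg3Δ and 1315.02, 1430.05 and 703.36 in WT. Its centres lay 323 to 479 bp inside the gene (chrIX:231553-232369, Crick strand). RPL28 had 80.13, 1060.14 and 1376.25 in rtg3Δ and 1306.74, 1297.17 and 834.69 in WT, but these peaks were centred at -643 to -1230 bp and the nearest gene start was that of VPS73. RPL14B had 836.32 and 648.79 in rtg3Δ IPs 2 and 3 and 610.35, 396.78 and 398.05 in WT.

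Nrg1p lists were short and reached few promoters of any kind. The sut1Δ IPs had 0, 2 and 0 and the WT IPs 1, 0 and 4, with 9 to 49 peaks per list. The means were 0.487 ± 0.843% in sut1Δ and 1.22 ± 1.52% in WT, and the ranges overlapped. Other genes had means of 0.8% in sut1Δ and 0.593% in WT. In sut1Δ no RP promoter had a peak in 2 IPs, beside 0.7% of all genes. In WT, RPL37B alone did (scores 62.27 and 78.03), which makes 0.73% of RP genes, beside 0.187% of all genes. RPL28 (50.31) and RPS3 (69.11) had a single sut1Δ peak, and RPL43B (340.32), RPL41B (182.40) and RPL22A had a single WT peak in the third IP. None was marked in every sut1Δ IP and no WT IP (0.171% of all genes) or the reverse (0%).

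The factors given rapamycin had a higher mean RP share in WT than those given none, but the drug and the factor cannot be told apart. The mean of the 2 factors with rapamycin, Gcn4p (9.98%) and Rtg3p (6.08%), was 8.03%. The mean of the 3 factors without it, Nrg1p (1.22%), Sut1p (9.49%) and Swi4p (2.19%), was 4.3%. The difference of 3.73 points turned to -4.23 when Swi6p, of unstated medium, was counted with the factors without the drug. It was 1.87 with a score of at least 100 and 1.09 by peak centre. With Swi6p left out, the mean excess over other genes was 1.16 points with rapamycin and 1.02 points without. These means join unlike factors. The excess was -0.163 for Gcn4p and 2.49 for Rtg3p, and 0.623 for Nrg1p, 2.52 for Sut1p and -0.0667 for Swi4p. For Swi6p it was 29. No factor was assayed in both conditions, so no test was run.

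Peak position differed by factor. The median centre of peaks at RP promoters was -576 bp for Gcn4p in WT, -216 bp for Rtg3p in WT and -136 bp for Sut1p in nrg1Δ, against 411 bp for Swi6p in WT. The Sut1p centres lay in the promoter in 45 of 108 pairs in nrg1Δ and in 17 of 39 in WT. In the second WT Sut1p list 13 of 19 did, whereas the third WT list had 3 of 14. The RP gene start was the nearest start to the centre in 71.3% of pairs for Sut1p in nrg1Δ, 76% for Rtg3p in WT, 56.1% for Gcn4p in WT and 54.9% for Swi6p in WT.

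**Figure D3:**
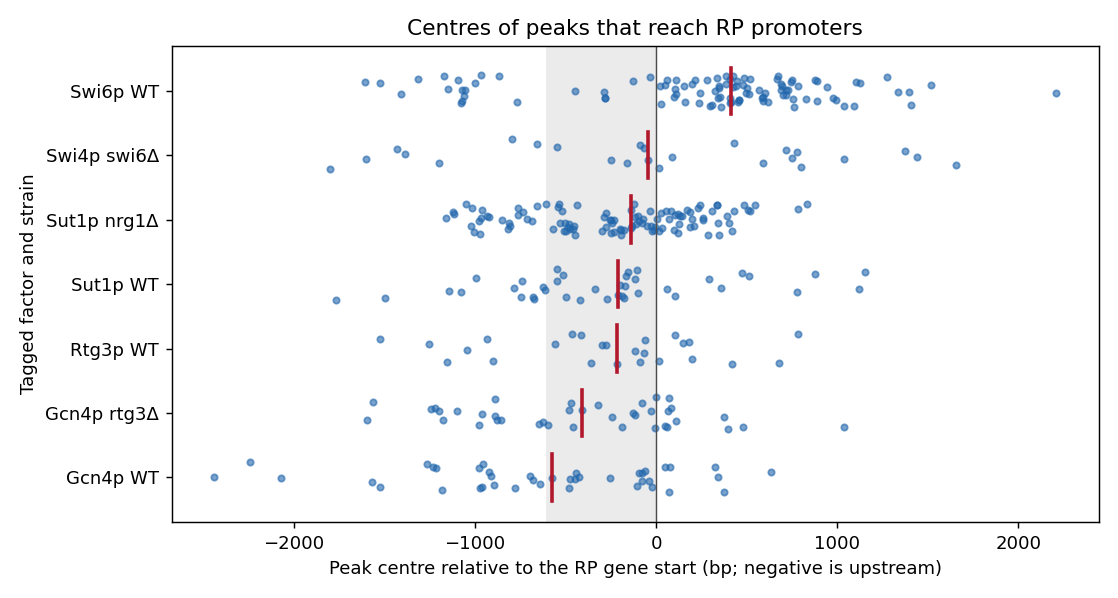
Distance in bp of each peak centre from the annotated start of the RP gene whose promoter it overlaps (x axis), by tagged factor and strain (y axis). Points are pairs of a peak and a gene over all IPs of the group, red lines are medians and the grey band is the 600 bp promoter. The median of Swi6p in WT is 411 bp inside the gene, and that of Gcn4p in WT is at -576 bp.

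Among the members, 103 had a promoter peak in at least 1 of the 30 IPs and 34 (24.8%) in none, against 50.3% of other genes in none. In 27 genes neither promoter nor body was reached. The first of the 34 by systematic name were RPL23A, RPL32, RPL19A, RPS29B and RPP1B. Peaks in 10 or more IPs were seen in 9 RP genes (6.57%), against 2.03% of other genes. RPL28 and RPL43B had 14 IPs each, RPL22A and RPL9B 13, RPL8B 12, RPS21B 11, RPL26B, RPL37B and RPS25B 10, and RPS3 9. RPL43B had a narrow pattern of position, with Gcn4p scores of 930.01, 97.10 and 313.54 in rtg3Δ and 239.19, 449.10 and 93.36 in WT, all centred at -23 to -126 bp, and Sut1p scores of 274.15, 761.80 and 868.38 in nrg1Δ with 229.67 in the third WT IP. RPL22A had the strongest Sut1p scores in nrg1Δ of the 10, at 1108.53, 1018.76 and 1950.77 in nrg1Δ and 175.09 in the third WT IP, and 62.83 and 56.36 for Swi6p in WT.

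Large-subunit genes had higher mean shares than small-subunit genes for Rtg3p in WT, Gcn4p in both strains and Sut1p in nrg1Δ, with little difference for Swi6p and Sut1p in WT. For Swi6p in WT the means were 38.2 ± 9.3% for RPL and 35.7 ± 15.2% for RPS, which overlapped. For Rtg3p in WT they were 9.21 ± 2.28% and 2.38 ± 1.03%, and every WT value for RPL (7.89% to 11.8%) was above every value for RPS (1.79% to 3.57%). For Gcn4p in rtg3Δ they were 12.7 ± 1.52% and 5.36 ± 1.79%, and in WT 11.8 ± 1.32% and 8.33 ± 1.03%. For Sut1p in nrg1Δ they were 29.8 ± 3.31% and 22.6 ± 7.22%, with ranges that overlapped (26.3% to 32.9% and 16.1% to 30.4%). For Sut1p in WT they were level, at 9.65 ± 6.22% and 9.52 ± 5.74%. The 5 stalk genes had no Gcn4p, Rtg3p, Nrg1p or Swi4p peak, and a mean of 13.3 ± 11.5% for Sut1p in nrg1Δ.

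The B copies of duplicated genes were marked more often than the A copies over all IPs, though not in every group. Over 59 pairs and 30 IPs, B promoters had 219 peaks and A promoters 116. B had more IPs in 31 pairs, A in 17, and 5 were equal and 6 had none. B promoters outnumbered A promoters in 20 IPs and the reverse held in 2. The counts of B and A were 28 and 8 for Gcn4p in WT, 18 and 6 for Rtg3p in WT and 64 and 26 for Sut1p in nrg1Δ. For Sut1p in WT they were nearly level at 17 and 14, with 1 and 3 in the first list, 7 and 7 in the second and 9 and 4 in WT IP 3. For Swi6p in WT they were 42 and 40, with 24 and 26 in the first list and 18 and 14 in the second. The widest differences were RPL43B with 14 IPs against 1 for RPL43A, RPL9B with 13 against 0 for RPL9A, RPS21B with 11 against 0 for RPS21A, RPS25B with 10 against 0 for RPS25A, and in the other direction RPL22B with 2 against 13 for RPL22A. Neighbours share several of these regions. The nearest gene start was that of LCB3 for 10 of 11 RPS21B peaks and that of FKH2 for 9 of 13 RPL9B peaks. With the peak centre in the promoter, RPL43B had 13 IPs, RPS21B 4, RPS25B 3, RPL22A 2 and RPL9B 0. Reads that did not align uniquely were discarded in the study, and the part of sequence shared by copies in these counts was not tested.

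**Figure D4:**
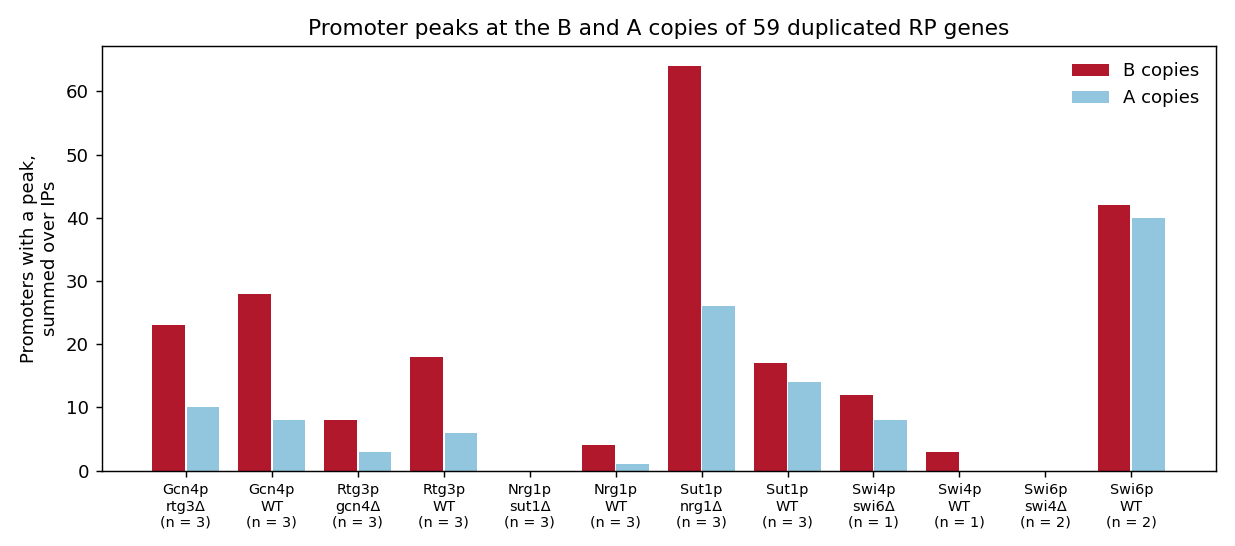
Number of promoters with a peak, summed over the IPs of each group (y axis), for the B copies (left bars) and A copies (right bars) of 59 duplicated RP genes, by tagged factor and strain (x axis). B exceeds A for Sut1p in nrg1Δ (64 and 26) and Gcn4p in WT (28 and 8), and the bars are nearly level for Swi6p in WT (42 and 40).

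Other gene lists show where the RP shares stood. Translation factors (18 genes) had a mean share of 22.2 ± 7.86% for Swi6p in WT (SD, n = 2) and 38.9% for Swi4p in swi6Δ. Glycolysis and fermentation genes (21 genes) had 16.7 ± 16.8% for Swi6p in WT and 42.9% for Swi4p in swi6Δ. The WT Swi6p lists differed for these genes, at 4.76% and 28.6%, and only CDC19 was marked in both. Against this, mitochondrial ribosomal protein genes (56 genes) had 1.79% for Swi6p in WT and 0% for Swi4p in swi6Δ. Promoters of nuclear tRNA genes (275 genes) had 23.5% for Swi6p in WT, and all other genes 7.16%. For Sut1p in nrg1Δ, translation factors had a mean share of 27.8 ± 9.62%, near the 26.3% of RP genes. In the same strain glycolysis and fermentation genes had 14.3%, mitochondrial ribosomal protein genes 13.7%, nuclear tRNA genes 16.6% and all other genes 15.3%. In the swi6Δ Swi4p list the marked glycolytic genes were CDC19, PGK1, TPI1, HXK2, TDH3, ENO2, FBA1, PDC1 and ADH1, and the translation factors EFB1, TEF1, TEF2, TEF4, HYP2, YEF3 and EFT1. RP genes, translation factors and glycolytic genes are known as strongly transcribed in rich medium, and whether transcription level plays a part in these shares was not tested.

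**Figure D5:**
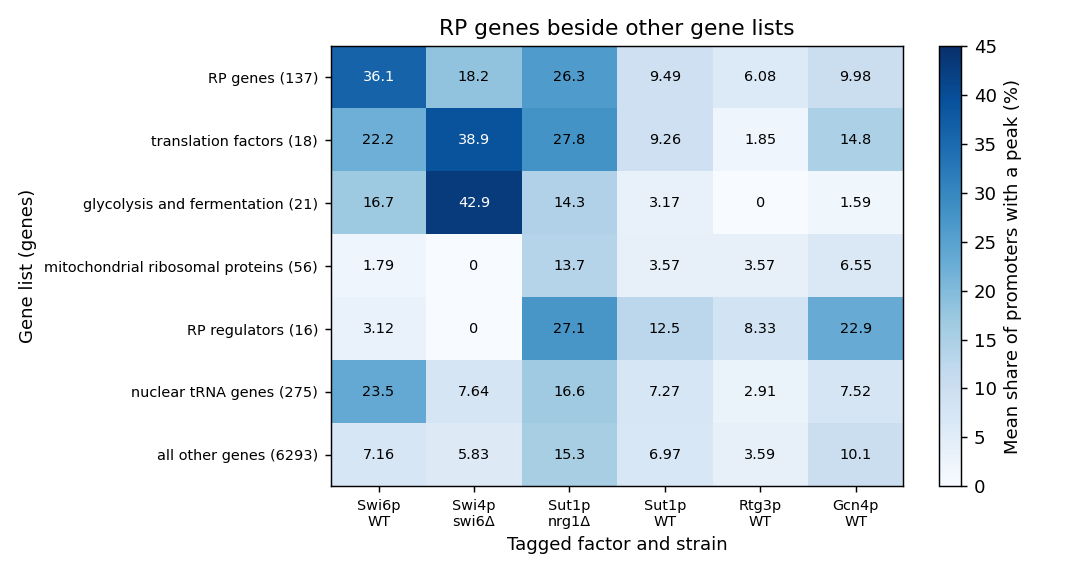
Mean percent of promoters with a peak (colour and printed value) for RP genes and other gene lists (rows, number of genes in brackets) by tagged factor and strain (columns). Swi6p in WT had 36.1% for RP genes and 1.79% for mitochondrial ribosomal protein genes, and Swi4p in swi6Δ had 42.9% for glycolysis and fermentation genes.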

How the data were processed

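Peak lists of 30 IPs were analysed, and the 20 INPUT samples carry no list of their own. Per the labels and the study's methods, the authors sequenced 42-base single reads and aligned them with Novoalign 2.07.0 (CASAVA 1.8 base calls) to R64. They discarded reads without a unique alignment, and ran MACS 1.4.0rc2 on each replicate against INPUT. For Nrg1p, Sut1p, Swi4p and Swi6p the labels hold 1 INPUT per strain. The deposited score of each peak, at least 50, is written by MACS from the peak's p-value, so it depends on depth, and medians of scores are compared within a list only. Peak starts were moved to 1-based coordinates, and 21 that lay before the first base of a chromosome were set to 1.

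Genes and coordinates were taken from the RefSeq table of R64, and strand from the systematic name. Of 6431 nuclear genes, 1 without a strand was left out. Shares are means ± SD over IPs. A promoter was called between strains when all IPs of a strain marked it and the other strain never did, with an exact permutation test over IPs and Benjamini-Hochberg adjustment over 6430 genes. Where a count needed support, it was 2 IPs (1 for Swi4p). Named genes were the 10 RP genes marked in most IPs, the 3 leading each factor in WT, up to 6 called per factor and direction, the 5 paralog pairs that differed most, and 5 with no peak. Overlap and test functions were tested on simulated data. Analyses ran in Python 3.11.15 with NumPy 2.4.6, pandas 2.3.3 and SciPy 1.17.1. The members and lists were chosen with earlier results of these data known. Promoter and protein sequences were not analysed here.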

Additional observations from a re-analysis of the deposited data

How the results depend on the processing

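All values here are differences in percentage points unless said otherwise. Leaving out 1 IP at a time, the WT excess of RP over other promoters ran from -0.665 to 0.271 for Gcn4p, 2.12 to 2.93 for Rtg3p, 0.119 to 1.05 for Nrg1p, 0.18 to 4.36 for Sut1p and 21.2 to 36.8 for Swi6p. The gene body excess ran from -6.8 to -3.91 for Gcn4p, 0.269 to 0.939 for Rtg3p, 0.531 to 1.45 for Nrg1p, -2.49 to 4.54 for Sut1p (lowest without the second WT IP) and 21.4 to 33.7 for Swi6p. The deletion minus WT difference in RP share ran from -1.22 to -0.122 for Gcn4p, -4.99 to -2.07 for Rtg3p, -1.34 to 0.122 for Nrg1p (highest without the third WT IP), 14.2 to 19.3 for Sut1p and -44.2 to -27.4 for Swi6p, and the rapamycin difference from 2.88 to 4.46.

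Counts of RP promoters in the deletion strain alone ran from 0 to 1 for Gcn4p, 0 to 0 for Rtg3p, Nrg1p and Swi6p, and 8 to 14 for Sut1p (14 without the third nrg1Δ or the third WT IP). Counts in WT alone ran from 0 to 2 for Gcn4p, 2 to 4 for Rtg3p, 0 to 1 for Nrg1p, 0 to 2 for Sut1p and 31 to 61 for Swi6p. With a difference of at least 2 IPs as the rule, the counts were 1 in rtg3Δ and 3 in WT for Gcn4p, and 7 in WT for Rtg3p. They were 1 in WT for Nrg1p, and 27 in nrg1Δ and 2 in WT for Sut1p. These counts, and those with 1 IP left out, are of RP genes only. The shares of all genes under these rules were not computed, so the counts do not show an excess of RP genes.

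The peak centre rule lowered the WT excess to 0.482 for Swi6p and 1.28 for Rtg3p, and the strain difference to 6.81 for Sut1p, 2.92 for Swi4p and -2.19 for Swi6p. With a score of at least 100, the WT excess was 1.44 for Rtg3p, the Swi6p body excess 17.6, and the strain difference -0.973 for Rtg3p, 6.57 for Swi4p and -24.8 for Swi6p. With equal numbers of top peaks, the WT excess was 1.52 for Rtg3p and -0.23 for Swi6p, and the strain difference 4.38 for Sut1p, 2.19 for Swi4p and 0.365 for Swi6p, whose shortest list has 3 peaks. RP promoters with no other gene start gave 1.59 for Gcn4p. With Swi6p among the factors without the drug, the rapamycin difference was -4.23, with a score of at least 100 it was 1.87 and by peak centre 1.09. The Rtg3p strain difference was -1.7 by peak centre and -1.22 with equal numbers of top peaks, and the Sut1p WT excess -0.12 with equal numbers.

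IP numbers were not taken as pairs, since WT IPs came from a split culture and deletion strains were grown separately. With the replicate block, the counts of RP promoters in deletion alone and WT alone were 0 and 0 for Gcn4p, 0 and 2 for Rtg3p, 0 and 0 for Nrg1p, 8 and 0 for Sut1p, and 0 and 31 for Swi6p, as without it. Of 37 named genes, the number of marked IPs moved by over 1.5 times in 23 under the peak centre rule and in 21 with equal numbers of top peaks. Peaks are calls at a threshold, so a promoter without a peak was not detectable at that depth and is not shown to be unbound.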

Other observations

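Of 16 genes that regulate RP transcription, Gcn4p peaks in at least 2 WT IPs marked the promoters of SCH9 and IFH1. SCH9 encodes a TOR-regulated kinase and IFH1 the coactivator of RP genes. They were 12.5% of the list, beside 8.72% of all genes. In rtg3Δ only SCH9 was marked in at least 2 IPs, 6.25% of the list, beside 6.89% of all genes. The mean promoter share of the 16 genes was 10.4 ± 7.22% in rtg3Δ and 22.9 ± 13% in WT (SD, n = 3 each). Genes outside the RP set had 8.52% and 10.1%. Sut1p in nrg1Δ marked CRF1, SCH9, IFH1 and TBF1 in at least 2 IPs, and the mean share was 27.1 ± 7.22%, against 12.5 ± 16.5% in WT, where no promoter of the list had a peak in 2 IPs. Genes outside the RP set had 15.3% in nrg1Δ and 6.97% in WT, and 13.8% of all genes were marked in at least 2 nrg1Δ IPs. Swi4p lists held none of these promoters in either strain, beside 6.1% of all genes in swi6Δ and 2.26% in WT.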
